A study of Homo sapiens with 13 samples.

Results

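The 9 genes described here are subunits and regulators of the transcription factor NF-kB, followed across 13 two-colour arrays on which myeloma cells with an inducible hairpin against IRF4 were compared with cells carrying a control hairpin. They are the 5 subunits NFKB1, NFKB2, REL, RELA and RELB, and the inhibitors and feedback genes NFKBIA, TNFAIP3, BIRC3 and NKIRAS2, taken by gene symbol. Of the 9 genes, 8 had at least 1 value and 7 had features (spotted cDNAs) measured often enough for testing, among 4728 genes and unnamed features tested in all. REL had values on 10 arrays but no feature that met the filter, and BIRC3 was not analysed here.

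NF-kB transcription factors are dimers of these subunits, and in resting cells inhibitor proteins hold most dimers in the cytoplasm. The canonical route destroys the inhibitor and frees dimers of RELA or REL with p50, the NFKB1 product, whereas the alternative route processes the NFKB2 product p100 to p52, which pairs with RELB. Several pathway genes are themselves NF-kB targets, and many myelomas carry mutations that activate the pathway.

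Every array compared a pair of infected cultures of the same line, with IRF4 hairpin cells labelled in Cy5 and luciferase hairpin cells (shluc) in Cy3. KMS12 cells came in 3 culture series, named 1332, 1332b and 2046 after their constructs (shi_1332, shi_1332b and shi_2046). Doxycycline was given at 20 ng/ml, and series 1332 was sampled at days 0, 3, 5 and 7, the other series at days 0, 2 and 4. The untreated, day 2 or 3 and day 4 or 5 arrays of the series form 3 windows of 3 arrays, in which day and series cannot be told apart. H929 cells with shi_2046 had 2 arrays at day 4 and SKMM1 cells with shi_2046 had 1, at the same dose. The sources used here do not say how infected cells were selected or whether a culture was clonal. They also do not say whether repeats are separate cultures, so p-values rest on the spread between arrays, which may be technical.

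IRF4, the targeted gene, stood at 118%, 109% and 112% of the control culture on the uninduced KMS12 arrays (series 1332, 1332b and 2046), at 45.2%, 29.1% and 48.8% at days 2-3, and at 66.5%, 64.4% and 59.5% at days 4-5. It stood at 59.0% on the day 7 array, at 28.9% and 25.7% in H929 and at 24.6% in SKMM1. The hairpin culture thus had less IRF4 mRNA than its control on all 10 induced arrays. These percentages, here and below, are the log2 ratio of hairpin over control, centred on the median of the tested features of its array and put back on a linear scale. A ratio gives no level, so the lines could not be checked for the presence of plasma cell mRNA, and in bulk cultures fewer cells with a transcript and less transcript per cell cannot be told apart. The arrays held 7140 to 14228 measured features. The series 2046 uninduced array stood apart before centring, with a median of 0.28 over the tested features against -0.16 to 0.03 on the other 12. The lowest correlation between arrays was -0.33 over all features, and the direction was kept because the labels state the dyes.

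The promoters of several members carry matches to the kappaB consensus, the DNA element that NF-kB dimers bind, and they are shown because these genes are known both as parts and as targets of the pathway. Sequences came from RefSeq (GRCh38.p14), in which 8 of the 9 members (all but RELB) had an entry, with 13 windows of 250 bases before a transcription start. A match on either strand was found in 6 members and 7 of these windows, against 9.96% of all 35116 windows of this length. The lines below give, on the gene strand from 5′ to 3′, the last 120 bases before the start of 4 members, with kappaB matches in capitals.
NFKB1: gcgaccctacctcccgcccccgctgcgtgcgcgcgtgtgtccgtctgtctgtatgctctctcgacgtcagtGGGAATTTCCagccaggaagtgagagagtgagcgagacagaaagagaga
REL: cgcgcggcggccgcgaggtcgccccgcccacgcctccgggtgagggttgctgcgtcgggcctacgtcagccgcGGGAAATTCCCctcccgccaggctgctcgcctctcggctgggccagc
NFKBIA: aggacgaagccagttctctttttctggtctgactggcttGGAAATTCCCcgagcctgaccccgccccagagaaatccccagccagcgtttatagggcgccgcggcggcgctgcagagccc
TNFAIP3: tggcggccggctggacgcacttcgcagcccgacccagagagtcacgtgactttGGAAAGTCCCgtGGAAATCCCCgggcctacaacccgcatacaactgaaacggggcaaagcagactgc
These windows lie at chr4:102501239-102501358 (plus strand), chr2:60881454-60881573 (plus strand), chr14:35404750-35404869 (minus strand) and chr6:137867139-137867258 (plus strand). NFKB1 and NFKBIA hold 1 match each in the bases shown, and TNFAIP3 holds 2. REL holds a pair of overlapping matches on opposite strands. NFKB2 has matches before 2 of its starts, GGGAATTCCC and GGGGCTTTCC before one and GGGGCTTCCC and GGGACTTTCC before the other, and BIRC3 also has matches. Among the members, only RELA had a match to the interferon response type of element that IRF proteins bind (GAAACTGAAA; 3.02% of all windows hold a match on either strand) or to the composite element for IRF4 with an ETS partner (TTTCTCTTCC on the gene strand; 2.41% of windows). RELB, without an entry, was not searched for any of these elements. A match is a description of the letters and does not show binding.

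At days 2-3 in KMS12 the members split by direction. NFKB2, RELB, RELA, NFKBIA and NKIRAS2 were higher in the hairpin culture on all 3 arrays than on any uninduced array, TNFAIP3 was lower on all 3, and the NFKB1 arrays overlapped. No overlap was seen for 6 of 7 members, 5 higher and 1 lower, against 32.2% of genes overall (13.2% higher and 19% lower). No member passed the adjusted threshold of 0.05 with limma, and neither did any of the 4728 genes and features. At an unadjusted p under 0.05, 3 of 7 members stood out (NFKB2, RELB and TNFAIP3), against 25.8% of all genes. Left as deposited, without centring, the members without overlap numbered 3 (NFKB2, RELB and TNFAIP3), and with 1 feature per gene also 3 (RELA, RELB and NKIRAS2). Without centring, the median of all genes would shift by -0.20 in this comparison.

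**Figure D1:**
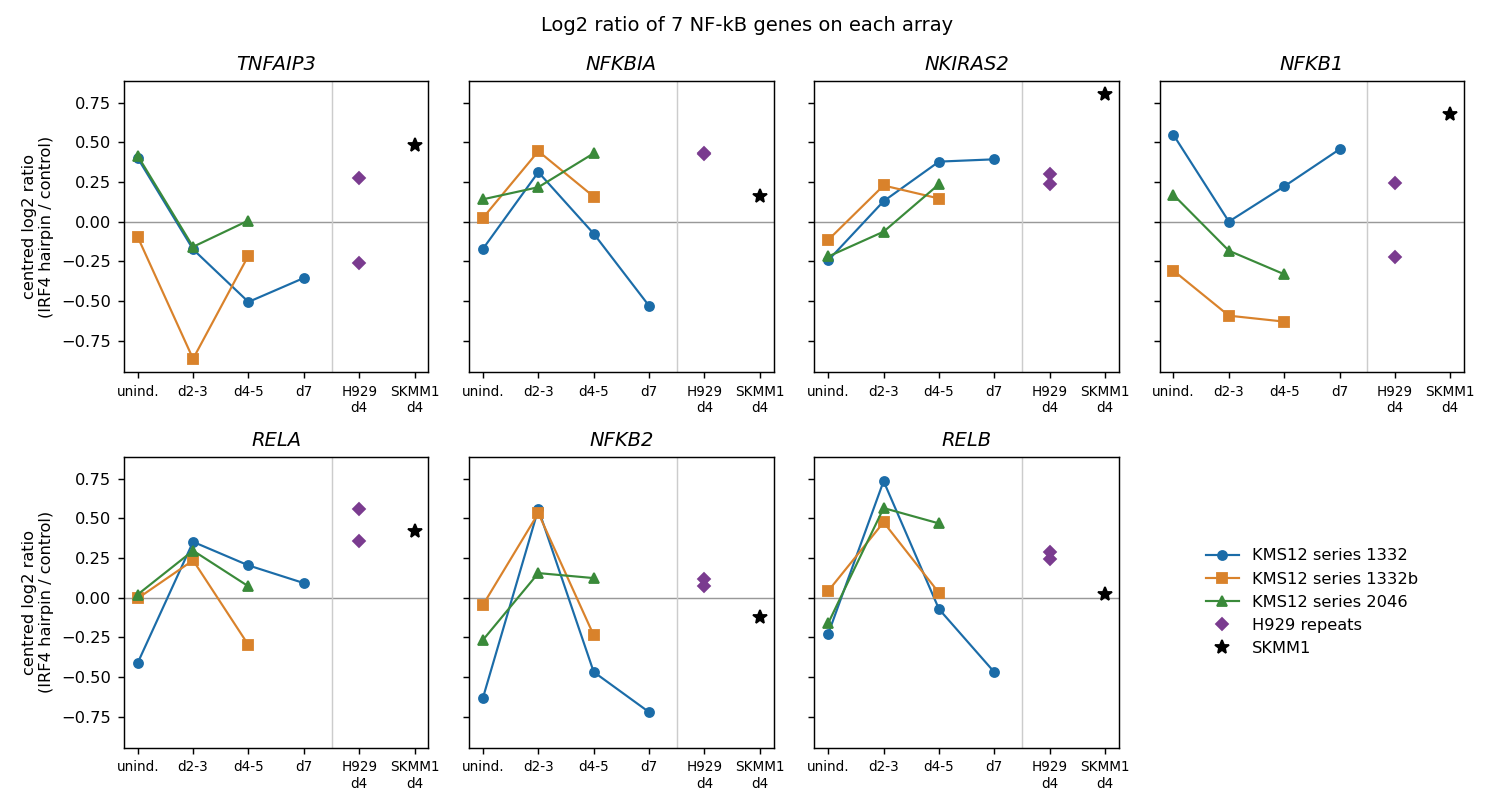
Centred log2 ratio of hairpin over control (vertical axis) for 7 genes on each of the 13 arrays, with KMS12 arrays of a culture series joined by lines and H929 and SKMM1 as single points. RELB and NFKB2 lie highest at days 2-3 in all 3 series, TNFAIP3 lies lower at days 2-3 than uninduced in all 3, and NKIRAS2 has its highest value in SKMM1.

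RELB, the partner of p52 in the alternative route, stood at 85.4%, 103% and 89.4% of control on the uninduced arrays and at 166%, 139% and 148% at days 2-3. The later arrays stood at 95.1%, 102% and 138% at days 4-5 and at 72.2% at day 7. At days 4-5 the arrays thus spread from near the uninduced values (1332, 1332b) to near the day 2 value (2046). In series 1332, though, the uninduced array held only 1 of the 2 tested features. That feature stood at -0.23 (log2) uninduced, -0.33 at day 5 and -0.075 at day 7. An untested feature, measured too rarely, stood at -0.11 uninduced in that series, 1.16 at day 5 and 0.98 at day 7. The difference at days 2-3 was 0.71 on the log2 scale (SE 0.20, 3 arrays against 3; limma, adjusted p = 0.0819), or 1.63-fold. It passed the threshold with only features measured on all 13 arrays (0.73, adjusted p = 0.0499) and with the induced arrays set against 0 (0.59, adjusted p = 0.0214). Many other genes passed under these settings too, as counted in the last section, with 904 genes past the threshold against 0. Set against 0, a dye effect or a difference of the cultures before doxycycline stays in the value. Both tested features of RELB were higher within every series where both arrays had a value, in 5 of 5 differences.

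NFKB2, which encodes p100, followed a like course, at 64.5%, 96.8% and 83.1% of control uninduced and 147%, 145% and 111% at days 2-3. It stood at 72.2%, 84.8% and 109% at days 4-5 and at 60.6% at day 7, the lowest of the 13 arrays. In series 1332, though, only the day 3 array held the fourth tested feature, at 1.28 (log2). The other tested features stood at 0.23, 0.47 and 0.255 on that array, against -0.30, -0.23 and -1.37 uninduced. The days 2-3 arrays were all above the uninduced ones, with series 2046 the smallest. The difference was 0.73 (SE 0.23; limma, adjusted p = 0.0897), or 1.66-fold, and without the series 2046 day 2 array it was 0.86 (adjusted p = 0.0433). Many other genes also passed the threshold without that array, as counted in the last section. The NFKB2 difference was 0.47 with 1 feature per gene (adjusted p = 0.252) and 0.51 with feature averages without gaps (adjusted p = 0.176). Against 0 it was 0.41 (adjusted p = 0.0885). Of 11 differences over 4 features and 3 series, 9 were above 0 after centring and 8 as deposited. After centring, the 2 below 0 belonged to the same feature, the fourth in the plot of single features.

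RELA, the main activating subunit of the canonical route, stood at 75.2%, 99.6% and 101% uninduced and at 128%, 118% and 123% at days 2-3. The days 2-3 arrays averaged 0.29 ± 0.06 (log2 mean ± SD, n = 3), and the difference was 0.43 (SE 0.20; limma, adjusted p = 0.209). These averages cover different features, as the series 1332 day 3 array held only 1 of the 2 tested features. That feature stood at 0.35, 0.72 and 0.315 (log2) at days 2-3 and at 0.15, 0.24 and 0.12 uninduced. The other feature stood at -0.97 on the series 1332 uninduced array. The difference was 0.22 without centring, where the arrays overlapped, and 0.28 with feature averages without gaps. All 5 differences of single features were above 0 after centring, but 3 of 5 as deposited. At days 4-5 RELA stood at 115%, 81.3% and 105%, on both sides of its control, and at 107% at day 7.

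NFKB1, which encodes p105 and p50, had the widest spread of the 7 tested genes among uninduced arrays, at 146%, 80.8% and 112%. It stood at 100.1%, 66.4% and 88.1% at days 2-3, at 117%, 64.7% and 79.5% at days 4-5 and at 137% at day 7. The series 2046 uninduced array held only 1 of the 2 tested features. That feature stood at 0.33, -0.06 and 0.17 (log2) on the uninduced arrays, and in series 2046 at -0.17 at day 2 and -0.048 at day 4. The other feature stood at 0.77 and -0.56 uninduced in series 1332 and 1332b. Series 1332b had the lowest value in each window, and the arrays of the windows overlapped. Within each series, though, the differences of single features from the uninduced array were below 0 in both windows. This held in 5 of 5 at days 2-3 and in 5 of 5 at days 4-5, as deposited too. At day 7 in series 1332, 1 feature stood above its uninduced value (0.70 against 0.33, log2) and the other below (0.22 against 0.77). The differences of the group means were -0.39 (SE 0.29; limma, adjusted p = 0.3997) and -0.38 (adjusted p = 0.849). The former was -0.60 without centring, -0.26 against 0, -0.19 and -0.62 without the series 1332 and 1332b uninduced arrays and -0.23 without the 1332b day 2 array. The latter was -0.035 with only features measured on all arrays, -0.12 with 1 feature per gene and -0.13 with averages without gaps, -0.25 against 0, and -0.18 to -0.62 leaving out an array of series 1332 or 1332b.

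REL, the subunit known for its part in lymphocyte activation, was measured too rarely for a test, and different features had values on different arrays. Its arrays averaged 109.9%, 99.8% and 50.8% uninduced, and 157%, 175% and 152% at days 4-5. At days 2-3 series 1332b stood at 83.6% and series 2046 at 57.6%, with no value in series 1332. The 3 arrays at days 4-5 were above all uninduced arrays, as were those of 5.47% of tested genes (11.2% without overlap in either direction). These REL averages cover different features, and the series 1332 day 5 array had a value for only 1. Compared feature by feature within a series, REL was higher in 7 of 7 differences at days 4-5 (4 features, 0.045 to 2.00 on the log2 scale) and in 2 of 2 at days 2-3 (1 feature). As deposited, without centring, these counts were 6 of 7 and 1 of 2. Day 7 stood at 116% and H929 repeat 1 at 59.5%.

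NFKBIA encodes IkBα, the inhibitor that NF-kB induces to end its own activity. It stood at 88.9%, 102% and 110.3% uninduced, at 124%, 136% and 116% at days 2-3, at 94.95%, 112% and 135% at days 4-5 and at 69.3% at day 7. The days 2-3 arrays lay just above the highest uninduced one, and the later arrays spread to both sides. The difference at days 2-3 was 0.33 (SE 0.19; limma, adjusted p = 0.296), with 10 of 12 differences of single features above 0. Without centring it was 0.12 and the arrays overlapped.

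TNFAIP3 encodes A20, a ubiquitin-editing enzyme that shuts down signalling upstream of the inhibitor kinase. It stood at 132%, 93.6% and 133% uninduced and at 88.7%, 55.0% and 89.7% at days 2-3, and then at 70.5%, 86.3% and 100.6% at days 4-5 and 78.2% at day 7. The days 2-3 arrays were all below the uninduced ones, by a narrow gap between 89.7% and 93.6%. The difference at days 2-3 was -0.64 (SE 0.26; limma, adjusted p = 0.160), -0.41 without the series 1332b day 2 array and -0.40 against 0. All 6 features were lower within every series where both arrays had a value, in 17 of 17 differences from -1.28 to -0.24, and in 17 of 17 as deposited. At days 4-5, 14 of 17 were below 0 and the difference was -0.48 (adjusted p = 0.810), or -0.24 against 0. The gap closed when arrays were scaled to one spread, when only features measured on all arrays were kept and when averages were taken without gaps.

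**Figure D2:**
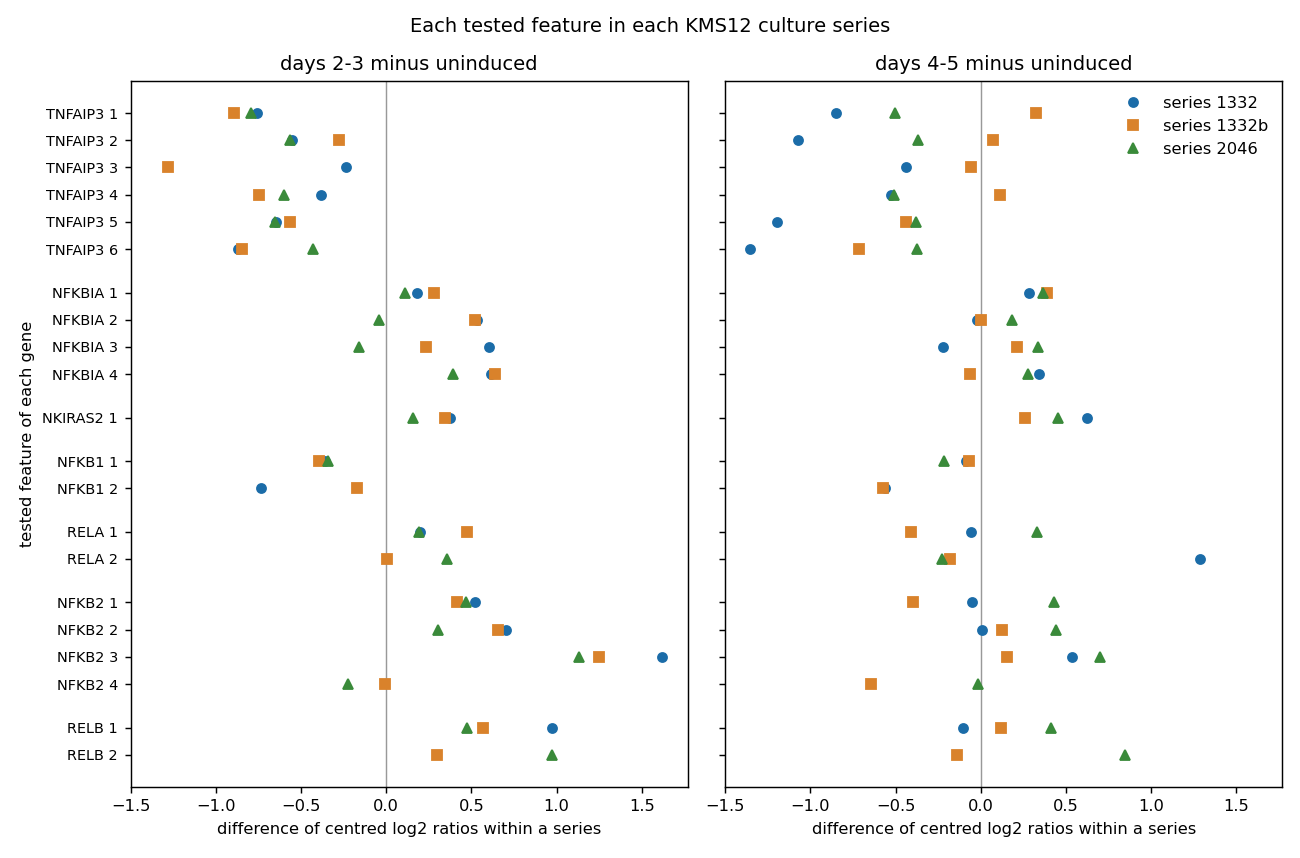
Difference of centred log2 ratios from the uninduced array of the same series (horizontal axis) for each tested feature of the 7 genes (vertical axis), at days 2-3 on the left and days 4-5 on the right, with a marker for each series. At days 2-3 all 17 TNFAIP3 points lie left of 0 and all 5 RELB points right of it, and at days 4-5 14 of the 17 TNFAIP3 points lie left of 0.

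NKIRAS2 encodes a small Ras-like protein that binds IkB proteins and slows their loss. It was measured by 1 tested feature, at 84.5%, 92.4% and 85.9% uninduced, at 109%, 117% and 95.8% at days 2-3, and at 130.1%, 111% and 118% at days 4-5, with 131% at day 7. Its arrays were the only ones of the 7 genes without overlap at days 4-5 (1 of 7, against 11.2% of genes, 5.47% higher) and over both windows (1 of 7, against 5.32%, 1.98% higher). The differences were 0.29 at days 2-3 (SE 0.17; limma, adjusted p = 0.302) and 0.45 at days 4-5 (SE 0.17; adjusted p = 0.797). Without centring they were 0.087, where the arrays overlapped, and 0.29, and against 0 they were 0.099 and 0.25. With no filter the first was 0.54. As deposited, the arrays of both windows together did overlap the uninduced ones. The other NKIRAS2 features, measured too rarely for a test, could be compared within series 1332b only. They differed from uninduced by 0.60 and 0.11 at day 2 and by -0.475 and 0.30 at day 4. No member and no other gene passed the adjusted threshold at days 4-5, where 1 of 7 members (NKIRAS2) had an unadjusted p under 0.05 against 5.96% of genes.

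Between the windows, which share no array, 3 of 7 members were lower at days 4-5 than at days 2-3 without overlap (NFKB2, RELA and RELB), against 20.7% of genes in either direction and 9.12% lower. As deposited, the arrays of all 3 genes overlapped. NFKB2 differed by -0.61 (SE 0.23; limma, adjusted p = 0.215; -0.39 with only features measured on all arrays) and RELB by -0.45 (SE 0.20; adjusted p = 0.262). At an unadjusted p under 0.05 these were 2 of 7 members, against 18.1% of genes, and 0% passed the adjusted threshold. IRF4 itself was 0.66 higher at days 4-5 than at days 2-3 (SE 0.21; adjusted p = 0.197). With only features measured on all arrays, only RELB had separate arrays. Over both windows together, which share the 3 uninduced arrays with the comparisons above, RELB stood 0.48 higher (adjusted p = 0.248), NFKB2 0.42 higher (adjusted p = 0.309) and TNFAIP3 -0.56 (adjusted p = 0.276) against uninduced. Without centring RELB was 0.30 and NFKB2 0.24. NFKB2 was 0.23 with 1 feature per gene, 0.27 without the series 1332 uninduced array and 0.11 against 0, and TNFAIP3 was -0.32 against 0. RELB, NKIRAS2 and TNFAIP3, 3 of 7 members, had an unadjusted p under 0.05 there, against 16.3% of genes, and none passed after adjustment.

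In H929 at day 4 the members were read against the control culture alone, so a dye effect stays in the value. RELA stood at 147% and 128% of control and NFKBIA at 135% and 135%, both above their controls on both repeats. The RELA values rest on 1 of its 2 tested features, which also stood above 0 on the uninduced KMS12 arrays (0.15, 0.24 and 0.12, log2). RELB stood at 118% and 122%, NFKB2 at 108% and 105%, and NKIRAS2 at 118% and 123%. NFKB1 stood at 119% and 85.6% and TNFAIP3 at 121% and 83.7%. The repeats average different features of NFKB1, TNFAIP3, NFKBIA and NFKB2. On shared features the log2 ratios were -0.02 and -0.22 for NFKB1 (1 feature) and 0.28 and -0.0050 for TNFAIP3 (4 features). They were 0.43 and 0.51 for NFKBIA (3 features) and 0.12 and 0.015 for NFKB2 (3 features). RELA averaged 0.46 (SE 0.18; limma, adjusted p = 0.137) and NFKBIA 0.43 (SE 0.17; adjusted p = 0.138), which was 0.21 with 1 feature per gene, and 0 of 7 members passed the threshold against 4.23% of genes, among them IRF4 (-1.88, adjusted p = 0.00198). At an unadjusted p under 0.05, RELA and NFKBIA made 2 of 7, against 25.5% of genes. RELA was 0.47 higher in H929 than in KMS12 at days 4-5 (SE 0.23, limma adjusted p = 0.323), a comparison in which line, hairpin and day partly overlap. The KMS12 arrays also average the other RELA feature, at 0.31, -0.43 and -0.31 (series 1332, 1332b and 2046). Over the alternative settings the RELA difference ran from 0.32 to 0.57. No member passed there, adjusted (0.0434% of genes) or unadjusted (17%).

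SKMM1 had 1 array and no replicate check. NKIRAS2 stood at 175% of control on its 1 tested feature, the highest of the 13 arrays, NFKB1 at 159.9% and TNFAIP3 at 140.2%. The other NKIRAS2 features, measured too rarely for a test, stood at 0.071 and 0.47 (log2) in SKMM1. On the KMS12 series 2046 day 2 array they stood higher, at 0.81 and 1.31. SKMM1 had 1 of 2 NFKB1 features and 3 of 6 TNFAIP3 features. On those features its log2 ratios of 0.68 and 0.49 lay below 0.70 on the KMS12 day 7 array and 0.66 on the series 1332 uninduced array. RELA stood at 134%, NFKBIA at 112%, RELB at 102% and NFKB2 at 91.7%. With hairpin 2046 at day 4 and the line as the replicate (3 lines), the mean ratios of all 7 members were above 0, from 0.03 for NFKB2 to 0.44 for NKIRAS2 (SE 0.19; limma, adjusted p = 0.262; 0.25 without SKMM1), against 49.4% of 4041 genes above 0. The means over 3 lines were read against the control culture alone, so a dye effect stays in them too. On the uninduced KMS12 arrays NFKB1 and TNFAIP3 already averaged 0.14 and 0.24, and the other members averaged below 0. None of the 7 passed the threshold, nor did any gene. At an unadjusted p under 0.05 the members numbered 0 of 7 against 19.2% of genes. The NFKB2 mean was below 0 as deposited (-0.063) and without KMS12 (-0.015) or H929 (-0.0016), and that of NFKB1 was -0.16 without SKMM1. For TNFAIP3 (mean 0.17) the ratio was 0.008 in KMS12, 0.009 in H929 and 0.49 in SKMM1.

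Across the 13 arrays, which share cultures within a series and a baseline in the control hairpin, NFKB2 and RELB had the highest Pearson correlation among the members (r = 0.93), followed by NFKB2 with NFKBIA (0.85) and RELB with NFKBIA (0.82). TNFAIP3 was nearest to NFKB1 (0.59) and had r of -0.03 with NFKBIA, and both genes hold kappaB matches in the windows shown above. Among 2826 other named genes, ASPSCR1 was near both RELB (0.94, 12 arrays) and NFKB2 (0.91), and MAPK3 was nearest to NFKB2 (0.93). NFKBIA was nearest to GRAMD1A (0.92), TNFAIP3 to SCRN1 (0.87, 10 arrays) and BCL2 (0.86), NKIRAS2 to LIMK2 (0.89), RELA to PNOC (0.89, 11 arrays) and NFKB1 to MMP20 (0.86, 11 arrays).

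Other genes of the pathway were taken from 3 lists. Of 44 genes of the signalling machinery 19 were tested, of 27 ligands and receptors 11, and of 50 known target genes 24, and none passed the adjusted threshold in KMS12. At days 2-3 the differences were above 0 for 11 of 19 machinery genes (median 0.12), 8 of 11 ligands and receptors (0.31), 18 of 24 targets (0.26) and 5 of 7 members (0.33), against 53.8% of all genes (0.05). At days 4-5 they were above 0 for 12 of 19 (0.16), 8 of 11 (0.18), 19 of 24 (0.23) and 5 of 7 (0.12), against 52.8% (0.02). Over 3 lines with hairpin 2046 the mean ratios were above 0 for 12 of 16 (0.19), 6 of 10 (0.15), 12 of 23 (0.06) and 7 of 7 (0.25), against 49.4% (-0.0057), so the targets lay near all genes there. The shared uninduced baseline lay low for these lists: against 0, 12 of 19 machinery genes, 10 of 11 ligands and receptors, 18 of 24 targets and 5 of 7 members were below 0 before induction, where 45.9% of all genes were above 0.

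**Figure D3:**
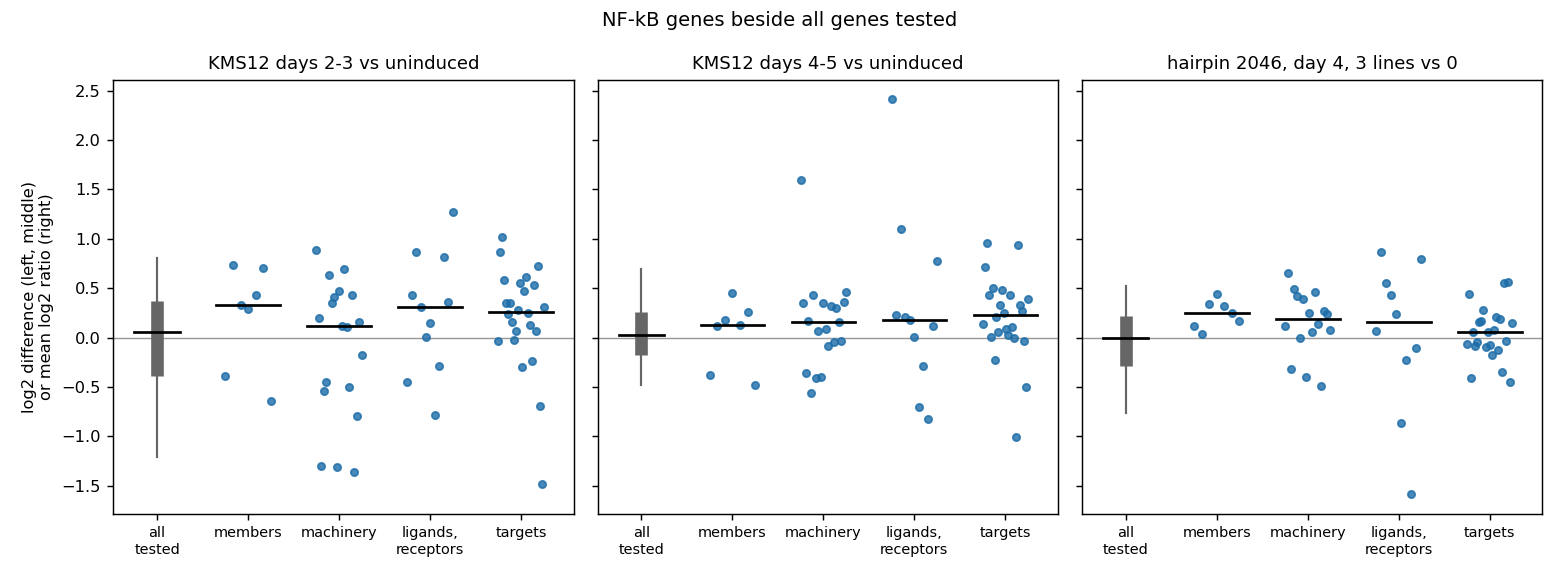
Log2 difference from uninduced in KMS12 at days 2-3 and days 4-5, and mean log2 ratio of hairpin 2046 at day 4 in 3 lines (vertical axis), for each tested gene of 4 lists as points with the median as a line, beside all genes tested (box from the 25th to the 75th percentile, line from the 5th to the 95th). The median of the 24 target genes lies at 0.26 and 0.23 in the KMS12 panels, and that of the 7 members at 0.33 and 0.12.

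In the machinery, the largest differences at days 2-3 lay below 0, in MAP3K7, the kinase TAK1 that activates the inhibitor kinases (-1.31, SE 0.29), BIRC2, a ubiquitin ligase of receptor complexes (-1.30, SE 0.35), and TANK, an adaptor that binds TRAF proteins (-1.36, SE 0.39), with limma adjusted p of 0.0764, 0.0795 and 0.0819. BCL10, an adaptor of antigen receptor signalling, stood 1.59 higher at days 4-5 (SE 0.42; adjusted p = 0.758) on 1 feature and 2 of 3 arrays, and 0.86 higher without the series 1332 day 5 array. Among ligands and receptors, TNFRSF17, the plasma cell receptor BCMA, stood at -0.78 at days 2-3, -0.71 at days 4-5 and -0.87 over 3 lines, below 0 on all 10 induced arrays and on 2 of the 3 uninduced ones. In series 1332b it stood at -0.44 uninduced, -0.60 at day 2 and -0.48 at day 4. LTB, the ligand lymphotoxin beta, stood 0.86 and 1.09 higher in the KMS12 windows against 2 uninduced arrays, the latter 0.68 without the series 1332 day 5 array. CD40, a receptor of both routes, averaged 0.87 over 3 lines (SE 0.20; adjusted p = 0.214). Among targets, the chemokine CCL3 stood 1.02 and 0.95 higher in the KMS12 windows than on 2 uninduced arrays (-0.99 in series 1332 and -0.019 in 1332b). These differences were 0.53 and 0.46 without the series 1332 uninduced array, and the later one 1.44 without that of 1332b. As ratios to control, which are another quantity, CCL3 lay at -0.59 and -0.82 in H929, at -1.06 in SKMM1 and from 0.29 to 0.86 on the 6 KMS12 arrays of the induced windows. PIM2, a survival kinase, stood at -1.01 at days 4-5 (SE 0.22; adjusted p = 0.737).

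Marker genes of cell types and B-lineage stages were read on the same arrays. All 8 plasma cell markers were tested (IRF4 among them), and their mean per array lay between -0.03 and 0.12 uninduced, -0.51 and -0.41 at days 2-3 and -0.49 and -0.33 at days 4-5. For earlier B cells 6 markers were tested, with array means of -0.39 to -0.21, 0.06 to 0.57 and -0.06 to 0.12. Of 7 T cell markers 5 were tested, without CD2 and LCK, with array means of -0.24 to -0.00015, -0.17 to 0.48 and 0.06 to 0.32. Their part in the members' values was not tested.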

How the data were processed

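RNA of 13 culture pairs was extracted with Trizol, labelled by reverse transcription and hybridised to Lymphochip spotted cDNA arrays, per the labels. The authors deposited a table of log ratios for 15246 features, taken here as log2 because values run from -9.78 to 7.51; its base, normalization and background correction are not stated in the labels. There were no dye swaps. Of the features, 10169 had 1 gene symbol, 4 several and 5073 none.

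Features measured on at least 10 of 13 arrays and at least 2 of 3 in each KMS12 window were tested (2833 named genes, 1895 unnamed features). Arrays were centred on the median of these features, and features of a gene were averaged. The fit of 6 group means over the 13 arrays used limma 3.58.1 (lmFit and eBayes, two-sided; R 4.3.3), with Benjamini-Hochberg adjustment over everything tested and a threshold of 0.05. Averages skip missing features, so a gene's features can differ between arrays. On simulated data for days 2-3 in KMS12 (4728 genes), 42% of changes of log2 1 and 88% of log2 2 were recovered, with 15 false calls.

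All members with a value were named; from each other list, the 3 tested genes with the smallest p in days 2-3, days 4-5, both windows and 3 lines, of which some are given; and per member the 3 genes of highest correlation, of which the nearest are given. Members and lists were chosen with earlier results of these data known. Alternatives changed the centring, array scale, filter, features, baseline, block and arrays included; feature averages without gaps and the counts of members without overlap under alternatives were added after seeing the data, as were values on shared features and list genes without each array.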

Additional observations from a re-analysis of the deposited data

How the results depend on the processing

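No member passed the threshold in any comparison, and among the members only RELB and NFKB2 passed under an alternative, as given above and, for RELB, over both windows against 0 (0.37, limma adjusted p = 0.0417). The number of genes past the threshold at days 2-3 (0) became 339 without centring, 2 with arrays scaled to one spread, 170 with only features measured on all arrays, 904 against 0 and 2 with feature averages without gaps; leaving out an array gave 0 to 653, the latter without the series 2046 day 2 array. For days 4-5 (0) it was 4 against 0 and 0 to 1 leaving out an array; for both windows (0), 455 against 0 and 0 to 85; for days 4-5 against days 2-3 (0), 1 with no filter and 0 to 360; the 85 and 360 came without the series 2046 day 2 array. For the uninduced arrays against 0 (0) it was 0 to 1. In H929 against 0 (195) it was 37 with arrays scaled, 5 with no filter, 383 with features on all arrays, and 5 to 19 with 1 repeat; in H929 against KMS12 (2), 0 with arrays scaled, 60 with features on all arrays and 0 to 4 leaving out an array. Over 3 lines (0) it was 737 without KMS12. Members without overlap at days 2-3 (6) numbered 3 without centring and 3 with 1 feature per gene. The causes were not tested.

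Differences that changed sign were small in the main analysis, at most 0.16, but some alternatives lay further from 0. At days 4-5 NFKB2 (0.12) was -0.038 without centring, -0.0077 with 1 feature per gene and -0.19 against 0, and RELA (0.12) was -0.035, -0.045 and -0.0088, and -0.049 with averages without gaps; leaving out an array gave -0.038 to 0.26 for NFKB2 and -0.016 to 0.27 for RELA. Between the windows NFKB1 (0.012) was -0.088 with arrays scaled and -0.22 to 0.20 leaving out an array, TNFAIP3 (0.16) was -0.020 with features on all arrays, -0.045 with averages without gaps and -0.071 to 0.30 leaving out an array, and NKIRAS2 (0.16) was -0.17 with no filter. In H929 NFKB1 (0.011) was -0.096 without centring, -0.092 with features on all arrays, -0.12 with 1 feature, -0.13 with averages without gaps and -0.22 to 0.25 with 1 repeat; NFKB2 was -0.012 and TNFAIP3 -0.098 without centring, and TNFAIP3 -0.26 to 0.28 with 1 repeat. Over all alternatives TNFAIP3 in H929 (0.009) ran from -0.26 to 0.66, and on repeat 2 its features ran from -1.27 to 0.41. Over 3 lines NFKB1 was -0.16 without SKMM1, and NFKB2 -0.063 without centring, -0.015 without KMS12 and -0.0016 without H929.

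With the culture series as a replicate block, 0 genes passed in each of the 4 KMS12 comparisons and no member's call changed (limma adjusted p at days 2-3 of 0.0935 for RELB, 0.104 for NFKB2 and 0.121 for TNFAIP3). Arrays of a series deviated together (correlation over 0.1) in 7 of 9 pairs, which ran from -0.12 to 0.37. Arrays of different series did so in 2 of 18 pairs, which ran from -0.40 to 0.45. The number of arrays and missing features limit the precision, and signal over background was not analysed here.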
